A study of Mus musculus with 20 samples.

Results

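RNA m6A writers, erasers and readers were followed in kidney cortex RNA of mice on a high-fat diet (HFD). The 8 genes were Mettl3, Mettl14, Wtap and Mettl16 (writers), Fto and Alkbh5 (erasers), and Ythdf2 and Ythdc1 (readers). They were chosen by name through the mouse Ensembl gene IDs of the count files, with earlier results of these data known but no measured value in the rule, and are 8 of 43430 genes in the files and 8 of the 16152 genes with enough reads to be tested. There were 20 libraries of poly(A) RNA from male C3H/HeJ mice, 5 in each of 4 groups. SP MAT2Ai and SP placebo kidneys came from Sweet Pee mice, homozygous for a missense mutation of Slc5a2, the gene of the glucose cotransporter SGLT2. WT MAT2Ai and WT placebo kidneys came from mice with intact SGLT2. Every mouse was 10 weeks old when the diet began (60% of calories from fat), had 8 weeks of HFD, and then 8 more weeks of HFD with intraperitoneal injections 3 times a week. The injections held 10 mg/kg of an inhibitor of MAT2A (MAT2Ai, a fluorinated chlorostyryl methylaniline) or DMSO as placebo. No group was on a normal diet, so the data hold no comparison with lean mice. The comparisons ask how an inhibitor of S-adenosylmethionine (SAM) synthesis and loss of SGLT2 function related to the RNA level of this machinery. The study reports a trend to lower SAM in SP kidneys given the inhibitor. That measurement lists no WT group given the inhibitor. Neither SAM nor the m6A mark itself was measured in these libraries.

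N6-methyladenosine (m6A) is the most common internal modification of mRNA. METTL3 transfers the methyl group from SAM to adenosine as a heterodimer with METTL14, WTAP holds the pair in nuclear speckles, and METTL16 is a separate enzyme that acts on U6 snRNA and on hairpins of the MAT2A mRNA. FTO and ALKBH5 are oxygenases that remove the mark, YTHDF2 binds it in the cytoplasm and brings mRNAs to decay, and YTHDC1 binds it in the nucleus and acts in splicing and export. MAT2A makes SAM, and in human cells a fall in SAM leaves METTL16 bound to those hairpins, which favours splicing of a retained intron and raises MAT2A mRNA.

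The METTL16-type motifs of the mouse Mat2a transcript are printed because MAT2A mRNA is the METTL16 target named above. The values of Mat2a are set beside those of Mettl16 later. The search was for TACAGAGAA and TACAGAAAA on the transcribed strand of the annotated 3′ UTR of 1494 bases (GENCODE, GRCm38/mm10, minus strand of chromosome 6). It found 6 matches, 5 of the first motif and 1 of the second, each shown 5′ to 3′ with 10 bases on either side and the motif in capitals.
Mat2a site 1, chr6:72434235-72434263: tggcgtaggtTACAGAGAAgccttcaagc
Mat2a site 2, chr6:72433451-72433479: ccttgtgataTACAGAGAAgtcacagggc
Mat2a site 3, chr6:72433272-72433300: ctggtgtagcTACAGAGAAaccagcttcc
Mat2a site 4, chr6:72433157-72433185: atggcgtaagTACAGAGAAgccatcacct
Mat2a site 5, chr6:72433046-72433074: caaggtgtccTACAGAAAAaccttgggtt
Mat2a site 6, chr6:72432938-72432966: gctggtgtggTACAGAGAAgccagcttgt
Of 21012 genes with an annotated 3′ UTR, 796 (3.79%) held at least 1 such match, and among the 2632 genes whose 3′ UTR was within 20% of the Mat2a length the share was 4.03%. Mat2a alone held 6. The 3′ UTRs of the 8 m6A genes held 0 each. A match is a stretch of letters and was not measured as a bound or methylated site.

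Each library held between 53296824 and 79339949 reads counted on genes (median 65147772), of which 12.39 to 22.24% fell on mitochondrially encoded genes. A principal component with 20.5% of the variance set WT MAT2Ai replicate 2 apart at 89.7, followed by WT MAT2Ai replicates 3 and 4 at 21.8 and 19.4, while the other 17 libraries lay between -22.8 and 6. Slc5a2, whose missense allele still gives RNA, stood at 40.2 to 85.9 CPM (counts scaled to the size of the library) in 8 of 10 SP libraries. The libraries labelled SP placebo replicates 1 and 2 stood at 241 and 282 CPM, above all other SP libraries. The WT range was 229 to 518 CPM, but its floor was the outlying WT MAT2Ai replicate 2. The next lowest WT library, WT MAT2Ai replicate 4, stood at 325 CPM. The pair thus lay between the other SP libraries and most WT libraries, and their genotype label is in doubt. Slc5a2 shares 597 exonic bases with BC017158 on the opposite strand. The markers of the proximal tubule, the cell type that makes up most of the cortex, were detected in every group (9 of 9). In tissue libraries, fewer cells of a type and less RNA per cell cannot be told apart.

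Per kilobase (1000 bases) of annotated exon, Alkbh5 stood first with 38.2 ± 3.33 CPM per kb (SD over 20 libraries), followed by Fto with 5.86 ± 0.482, Ythdf2 with 5.3 ± 0.286, Wtap with 4.52 ± 0.288, Ythdc1 with 3.33 ± 0.378, Mettl3 with 2.32 ± 0.176, Mettl16 with 1.72 ± 0.121 and Mettl14 with 1.21 ± 0.102 CPM per kb. Alkbh5 was above Fto in 20 of 20 libraries and its range did not meet that of any other gene. Fto and Ythdf2, Ythdf2 and Wtap, Wtap and Ythdc1, and Mettl3 and Mettl16 were neighbours with overlapping ranges, although Fto was above Ythdf2 in 18 of 20 libraries and Ythdf2 above Wtap in 18 of 20. The catalytic subunit Mettl3 was above its partner Mettl14 per length in every library. Raw counts behind these levels ran from 470 reads for Mettl14 to 17429 reads for Alkbh5.

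**Figure D1:**
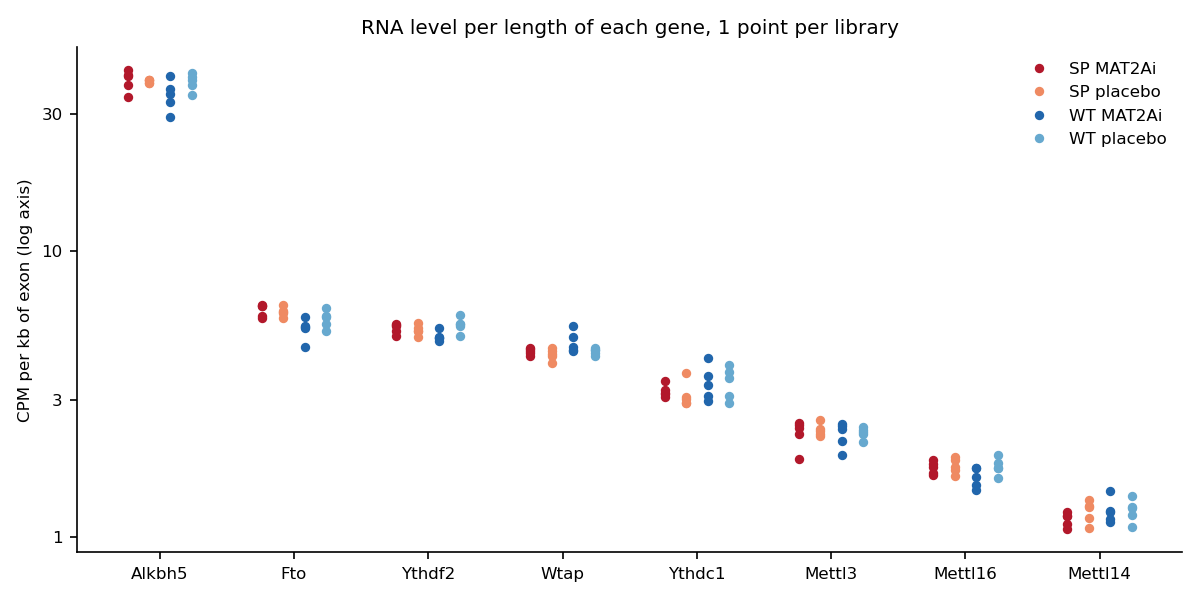
RNA level of each gene in CPM per kb of exon (log axis), 1 point per library, coloured by group. Alkbh5 sits at 38.2 CPM per kb on average and the other 7 genes between 1.21 and 5.86.

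No member of the set passed the threshold (adjusted p under 0.05, edgeR quasi-likelihood test, Benjamini-Hochberg over 16152 genes) in any of 8 comparisons. Counts and shares at an unadjusted p under 0.05 are by edgeR unless another tool is named. For SP MAT2Ai against SP placebo 0 of 8 members passed, against 0.0186% of all genes (0.168% by DESeq2 and 0.105% by limma-voom), and 0 of 8 had an unadjusted p under 0.05, against 5.92%. For WT MAT2Ai against WT placebo 0 of 8 passed, against 0% of all genes (1.27% by DESeq2 and 0.0124% by limma-voom), and 1 had an unadjusted p under 0.05 (Ythdf2), against 15.7%. For SP placebo against WT placebo 0 of 8 passed, against 0% (0.0435% by DESeq2 and 0.0248% by limma-voom), with 0 at an unadjusted p under 0.05, against 3.75%. At that unadjusted cut DESeq2 had 3 members for WT MAT2Ai against WT placebo (Mettl16, Alkbh5 and Ythdf2), and limma-voom had 1 (Ythdf2). Limma-voom had 2 members for SP placebo against WT placebo (Fto and Ythdc1). The share of all genes at this cut was not counted for these tools. These counts therefore cannot be set against all genes and are not read as a change of the members.

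The single largest difference of a member, that of Fto, was in the genotype comparison under the inhibitor. For SP MAT2Ai against WT MAT2Ai 0 of 8 members passed, against 1.84% of all genes, and 3 had an unadjusted p under 0.05 (Fto, Alkbh5 and Wtap), against 21.8%. For SP against WT averaged over treatment 0 of 8 passed, against 1.33%, and 1 had an unadjusted p under 0.05 (Fto), against 19.6%. DESeq2 called 1 member, Fto, in both of these, where it called 7.62% and 5.5% of all genes. Limma-voom called Fto in the averaged one, with 8.3% of all genes, and 0 members in the other, with 2.46%. For SP MAT2Ai against WT placebo 0 of 8 passed, against 0.118% (2.08% by DESeq2 and 4.4% by limma-voom), for MAT2Ai against placebo averaged over genotype 0 of 8, against 0.223% (1.18% and 0.433%), and for the interaction of genotype and MAT2Ai 0 of 8, against 0% (0.00621% and 0%). Outside the Fto calls, DESeq2 and limma-voom called 0 members in the 8 comparisons. By edgeR, unadjusted p was under 0.05 for 0 members for SP MAT2Ai against WT placebo, against 12.9% of all genes. The count was 0 for MAT2Ai against placebo averaged over genotype, against 14.7%, and 1 (Ythdf2) in the interaction, against 5.59%. By limma-voom the unadjusted p was under 0.05 for Fto, Alkbh5 and Ythdf2 for SP MAT2Ai against WT MAT2Ai. It was so for Fto and Ythdc1 for SP against WT averaged over treatment. The same held for Fto for SP MAT2Ai against WT placebo, and for Ythdf2 in the interaction. By DESeq2 the members were Wtap, Fto and Alkbh5 in the first of these, Fto in the averaged one and Ythdf2 in the interaction. As above, the share of all genes at this cut was not counted for these tools, so these lists cannot be set against all genes.

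The differences of the members were small beside those of other genes. Their median absolute log2 fold change was 0.026 for SP MAT2Ai against SP placebo, where that of all tested genes was 0.091. It was 0.111 for WT MAT2Ai against WT placebo (all genes 0.135) and 0.105 for SP MAT2Ai against WT MAT2Ai (all genes 0.149). The genes were not matched for expression level. None of the 8 had groups free of overlap in any of the 5 comparisons between a pair of groups, where the share of all genes was 1.58% for SP MAT2Ai against SP placebo, 2.19% for WT MAT2Ai against WT placebo, 1.19% for SP placebo against WT placebo, 3.4% for SP MAT2Ai against WT MAT2Ai and 4.02% for SP MAT2Ai against WT placebo. The 95% confidence intervals, for each gene taken alone and with a spread shared by the groups, give a measure of what could have been missed. In SP kidneys the inhibitor intervals reached from -16.9% (Mettl14) to 18.4% (Ythdc1), and in WT kidneys from -19.4% (Alkbh5) to 16.9% (Wtap).

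**Figure D2:**
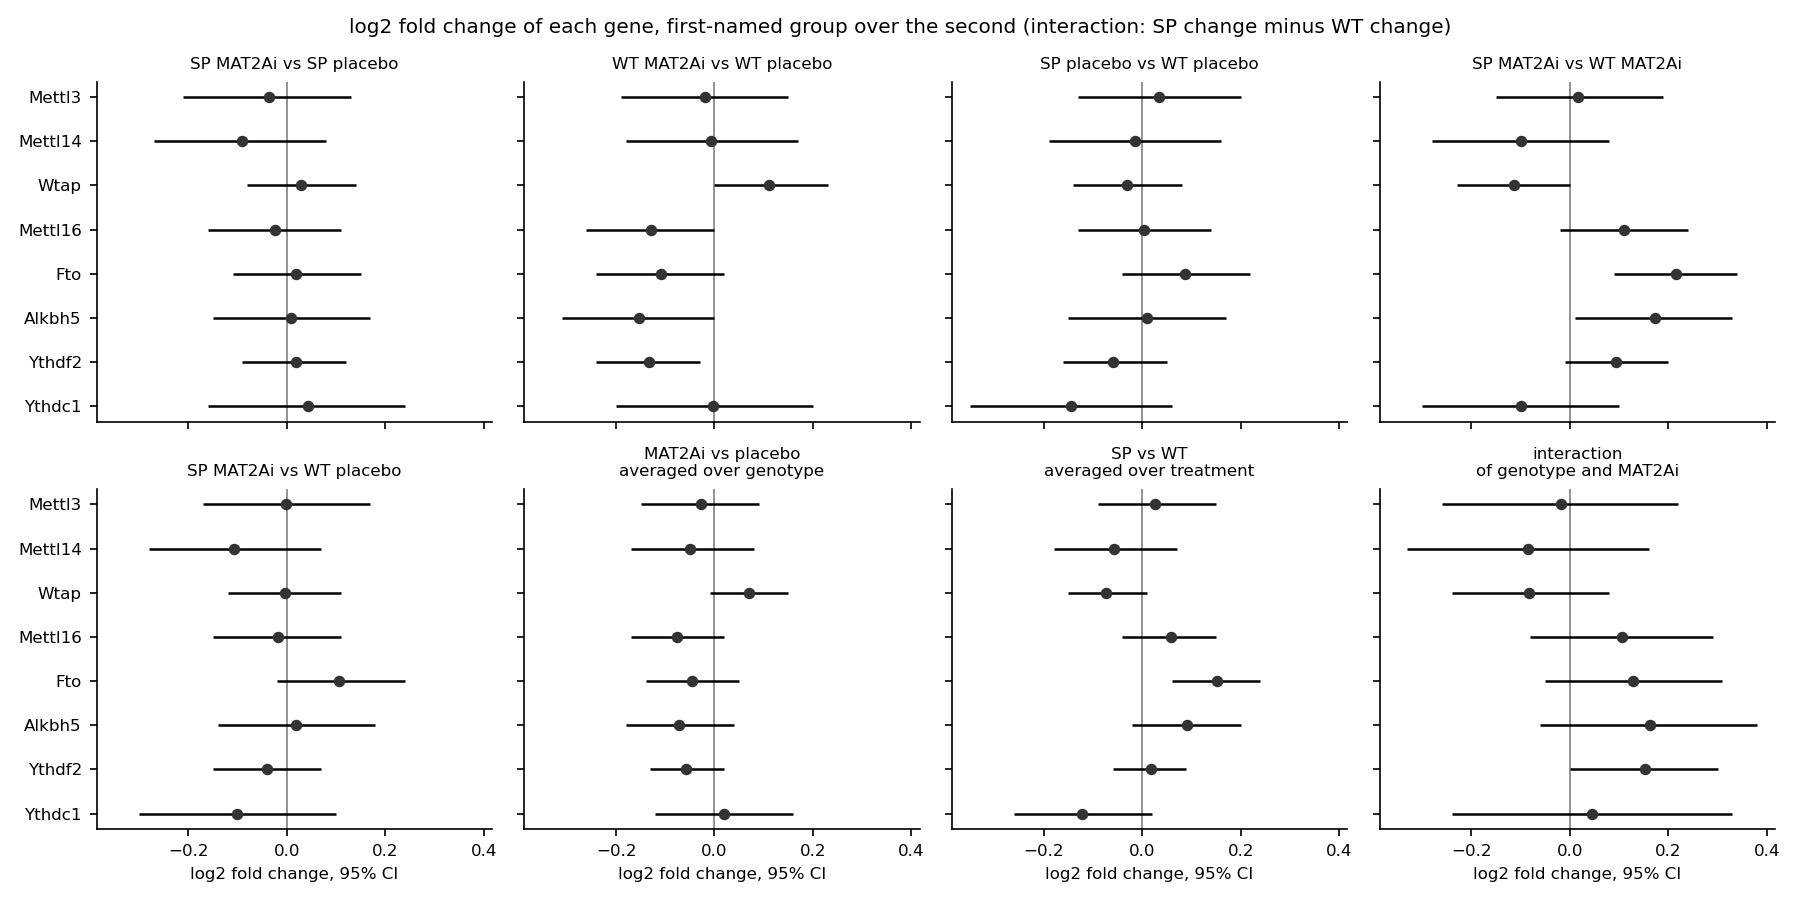
log2 fold change of each gene with its 95% confidence interval in each of 8 comparisons, the first-named group over the second. Intervals for SP MAT2Ai against SP placebo all span 0, and the interval of Fto lies above 0 for SP MAT2Ai against WT MAT2Ai (0.09 to 0.34) and for SP against WT averaged over treatment (0.06 to 0.24).

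In the writer complex, Mettl3 (chr14:52294841-52305128, minus strand), the catalytic subunit, had 12.7, 12.5, 9.52, 12.2 and 11.6 CPM in SP MAT2Ai kidneys (replicates 1 to 5), against 11.9, 12.1, 11.4, 13.0 and 11.6 CPM in SP placebo kidneys. It had 12.1, 11.0, 12.4, 9.82 and 12.6 CPM in WT MAT2Ai kidneys, against 10.9, 11.6, 11.8, 12.3 and 12 CPM in WT placebo kidneys. One library in each inhibitor group, SP MAT2Ai replicate 3 and WT MAT2Ai replicate 4, lay below every placebo library, and all 4 groups overlapped. The log2 fold change was -0.04 ± 0.08 (SE) for SP MAT2Ai against SP placebo (adjusted p = 0.994 by edgeR) and -0.02 ± 0.08 for WT MAT2Ai against WT placebo (adjusted p = 0.933 by edgeR). Mettl3 shares 933 exonic bases with Tox4 on the opposite strand, which had 1744 to 2383 reads a library where Mettl3 had 553 to 950. The strand setting of the counting is not given in the sources used here. How reads on the shared bases were assigned is therefore not known, and the Mettl3 count could be affected.

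Mettl14 (chr3:123368297-123386108, minus strand), which binds RNA within the heterodimer, was the lowest of the 8. It had 7.87, 8.75, 8.2, 9.08 and 8.78 CPM in SP MAT2Ai kidneys, against 9.47, 8.63, 7.98, 9.94 and 9.46 CPM in SP placebo kidneys. It had 9.11, 9.07, 8.55, 8.35 and 10.7 CPM in WT MAT2Ai kidneys, against 10.3, 9.37, 8.83, 9.43 and 8.05 CPM in WT placebo kidneys. The groups overlapped throughout, and SP MAT2Ai had the lowest mean, 8.53 ± 0.49 CPM (SD, n = 5), against 9.1 ± 0.779 CPM in SP placebo. That difference, a log2 fold change of -0.09 ± 0.08 (SE), was the largest of any member for the inhibitor in SP kidneys and did not pass (adjusted p = 0.985 by edgeR, interval -16.9 to 5.99%). The ratio of Mettl3 CPM to Mettl14 CPM within a library, not corrected for length, averaged 1.37 ± 0.167 in SP MAT2Ai, 1.33 ± 0.089 in SP placebo, 1.27 ± 0.116 in WT MAT2Ai and 1.29 ± 0.155 in WT placebo (SD, n = 5 each). The group ratios overlapped.

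Wtap (chr17:12966796-12994169, minus strand), the regulatory subunit, was nearly level in 3 of the groups and higher in part of the fourth. It had 27.5, 27.8, 28.3, 26.8 and 28.6 CPM in SP MAT2Ai kidneys, against 28.6, 25.4, 27.3, 26.9 and 28.0 CPM in SP placebo kidneys. It had 31.2, 34.2, 28.2, 28.8 and 28.0 CPM in WT MAT2Ai kidneys, against 26.9, 28.1, 28.2, 27.5 and 28.6 CPM in WT placebo kidneys. WT MAT2Ai replicates 1 and 2 were the highest of all 20 libraries, and 3 of 5 WT MAT2Ai libraries exceeded every WT placebo library. The log2 fold change was 0.11 ± 0.05 (SE) for WT MAT2Ai against WT placebo (adjusted p = 0.324 by edgeR) and -0.11 ± 0.05 for SP MAT2Ai against WT MAT2Ai (unadjusted p = 0.0479, adjusted p = 0.225 by edgeR). Without WT MAT2Ai replicate 2 the first value was 0.06 (adjusted p = 0.775 by edgeR) and the second was -0.06 (adjusted p = 0.516).

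**Figure D3:**
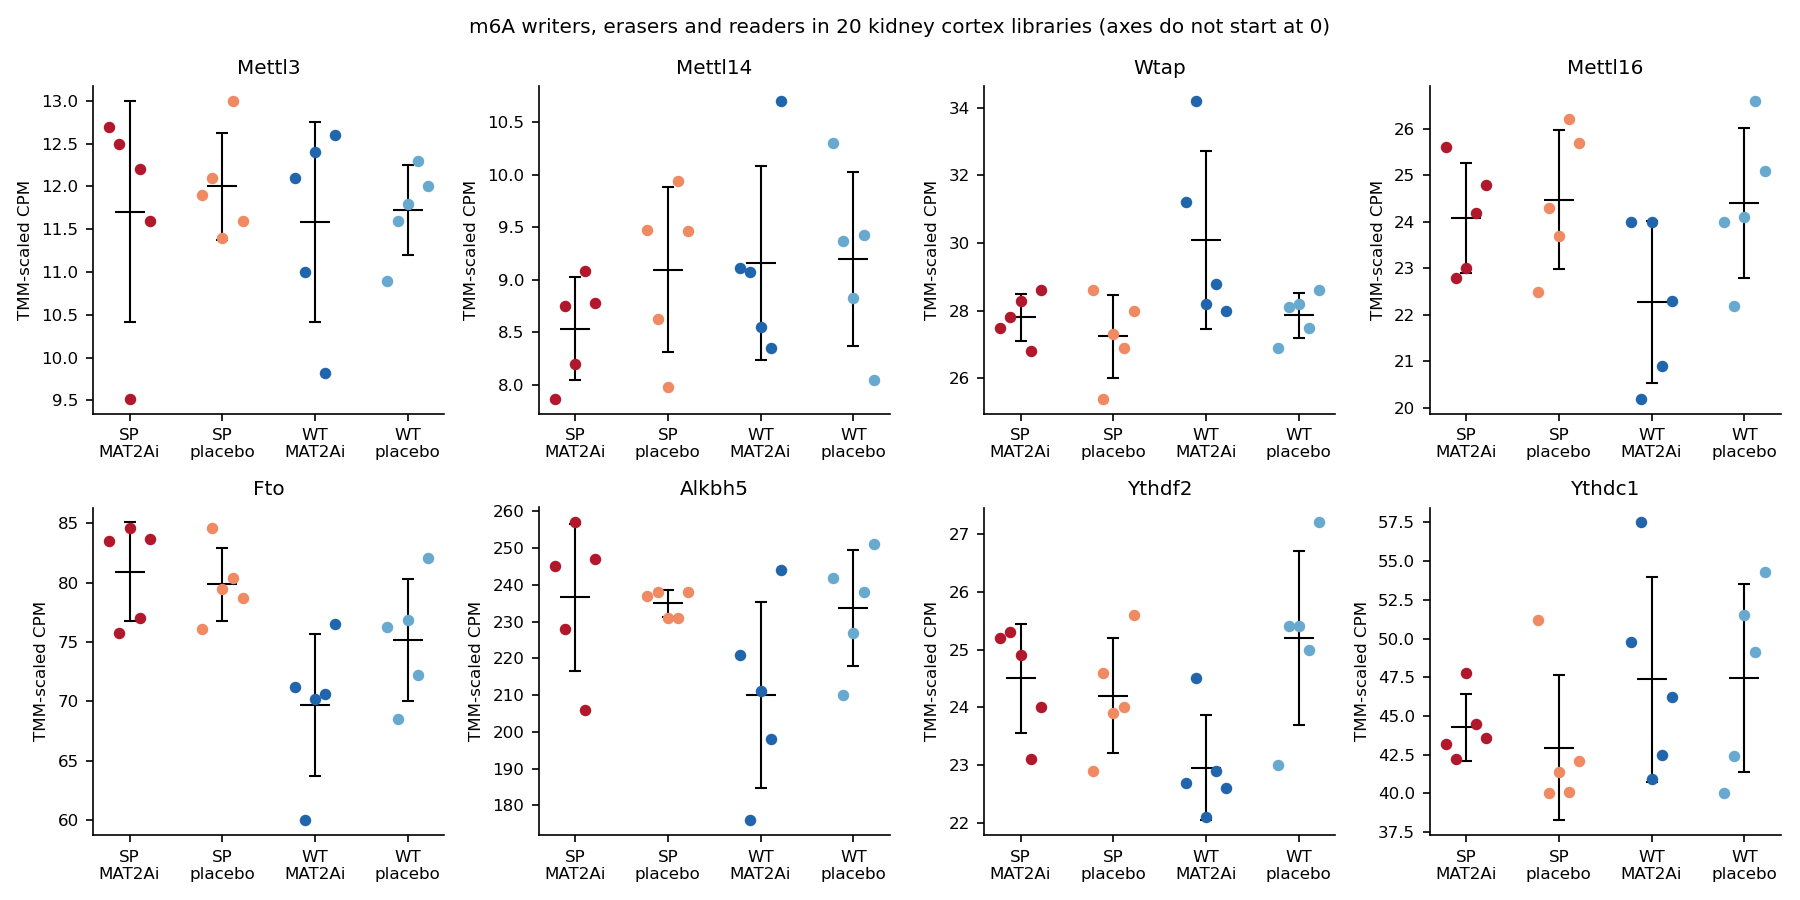
TMM-scaled CPM of each gene in each of 20 libraries by group, replicates 1 to 5 from left within a group, with the group mean and SD in black; axes do not start at 0. Groups overlap for all 8 genes, and WT MAT2Ai replicate 2 is lowest for Fto, Alkbh5 and Mettl16 and highest for Wtap and Ythdc1.

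The separate writer Mettl16 (chr11:74770830-74828525, plus strand) had 25.6, 22.8, 23.0, 24.2 and 24.8 CPM in SP MAT2Ai kidneys, against 22.5, 24.3, 23.7, 26.2 and 25.7 CPM in SP placebo kidneys. It had 24.0, 20.2, 24.0, 20.9 and 22.3 CPM in WT MAT2Ai kidneys, against 24.0, 22.2, 24.1, 26.6 and 25.1 CPM in WT placebo kidneys. WT MAT2Ai replicates 2 and 4 were the lowest of all libraries and 5 of 5 WT MAT2Ai libraries lay below the WT placebo median, but the groups overlapped. The log2 fold change was -0.13 ± 0.06 (SE) for WT MAT2Ai against WT placebo (unadjusted p = 0.0541, adjusted p = 0.324 by edgeR), and -0.02 ± 0.06 for SP MAT2Ai against SP placebo (adjusted p = 0.994 by edgeR). The difference between these changes, the interaction, was 0.11 ± 0.09 (adjusted p = 0.87 by edgeR).

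Mat2a, which encodes the drug's target enzyme and carries the 6 motif matches shown above, had 362, 368, 317, 485 and 405 CPM in SP MAT2Ai kidneys, against 363, 265, 379, 474 and 335 CPM in SP placebo kidneys. It had 392, 525, 504, 494 and 398 CPM in WT MAT2Ai kidneys, against 452, 345, 365, 314 and 315 CPM in WT placebo kidneys. WT MAT2Ai replicates 2, 3 and 4 exceeded every WT placebo library, while replicates 1 and 5 lay within the WT placebo range. Mat2a shares 508 exonic bases with an annotated noncoding gene of the opposite strand that the files do not list. WT MAT2Ai replicates 2, 3 and 4 are also the libraries that stood apart on the principal component. Mat2a RNA had a log2 fold change of 0.37 ± 0.14 (SE) for WT MAT2Ai against WT placebo (unadjusted p = 0.017, adjusted p = 0.231 by edgeR) and of 0.09 ± 0.14 for SP MAT2Ai against SP placebo (adjusted p = 0.989 by edgeR). Neither passed, and the interaction of -0.28 ± 0.20 did not pass either (adjusted p = 0.856 by edgeR).

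**Figure D4:**
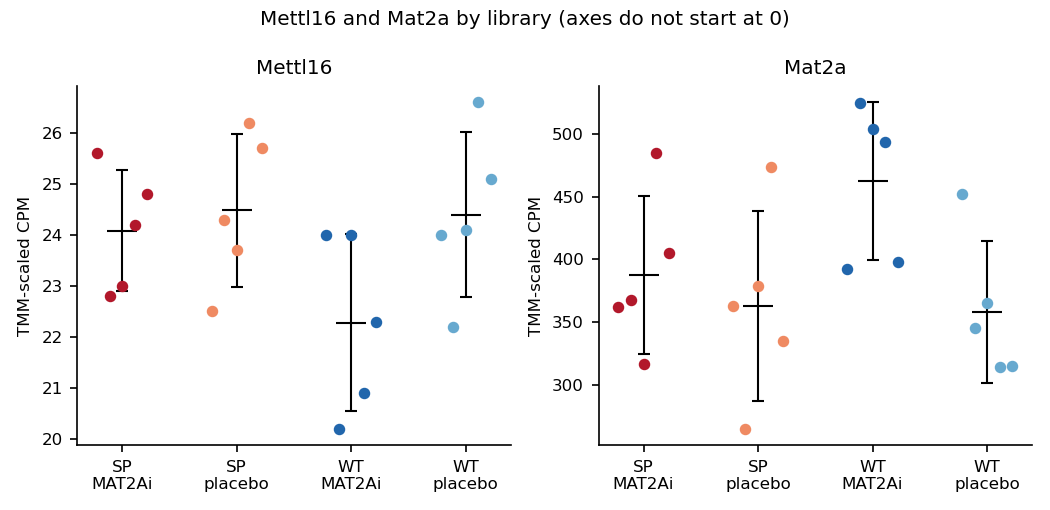
TMM-scaled CPM of Mettl16 and of Mat2a in each library by group, replicates 1 to 5 from left, with mean and SD in black; axes do not start at 0. WT MAT2Ai replicates 2, 3 and 4 had 525, 504 and 494 CPM of Mat2a, above all 5 WT placebo libraries, and WT MAT2Ai replicates 2 and 4 had the lowest Mettl16, at 20.2 and 20.9 CPM.

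Of the erasers, Fto (chr8:91313525-91668439, plus strand), the demethylase also known as an obesity-associated gene, held the largest difference of any member. It had 83.5, 75.8, 84.6, 77.0 and 83.7 CPM in SP MAT2Ai kidneys, against 71.2, 60, 70.2, 70.6 and 76.5 CPM in WT MAT2Ai kidneys. It had 76.1, 84.6, 79.5, 80.4 and 78.7 CPM in SP placebo kidneys, against 76.3, 68.5, 76.9, 72.2 and 82.1 CPM in WT placebo kidneys. Under the inhibitor 4 of 5 SP libraries exceeded every WT library and the fifth lay just below WT MAT2Ai replicate 5. Under placebo the genotypes overlapped widely. Fto shares 304 and 144 exonic bases with a pair of annotated transcripts of the opposite strand that the files do not list.

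For SP MAT2Ai against WT MAT2Ai the log2 fold change of Fto was 0.22 ± 0.06 (SE, unadjusted p = 0.00245), an interval of 6.12 to 27.0%, and its adjusted p of 0.063 by edgeR missed the threshold. For SP against WT averaged over treatment it was 0.15 ± 0.04 (unadjusted p = 0.00261, adjusted p = 0.0795 by edgeR). Fto averaged 80.4 ± 3.5 CPM in SP kidneys and 72.4 ± 6.01 CPM in WT kidneys (SD, n = 10 each). The SP mean includes the libraries labelled SP placebo 1 and 2, whose label is in doubt. Under placebo alone the value was 0.09 ± 0.06 (adjusted p = 1 by edgeR). Other tools and 1 other set of libraries put Fto past the threshold. DESeq2 gave an adjusted p of 0.0202 under the inhibitor and 0.0314 for the average, limma-voom gave 0.0227 for the average, and edgeR without WT MAT2Ai replicate 5 gave 0.0339 and 0.0487. Of 31 alternative settings 2 called Fto under the inhibitor, and of 30 settings 3 called it for the average. Without WT MAT2Ai replicates 2, 3 and 4, the edgeR value was 0.13 under the inhibitor (adjusted p = 0.407) and 0.11 for the average (adjusted p = 0.197). Without both libraries labelled SP placebo 1 and 2, the edgeR value for the average was 0.15 (adjusted p = 0.125).

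Alkbh5 (chr11:60536381-60558512, plus strand), the nuclear demethylase and the most abundant of the 8, had 245, 228, 257, 206 and 247 CPM in SP MAT2Ai kidneys, against 221, 176, 211, 198 and 244 CPM in WT MAT2Ai kidneys. It had 237, 238, 231, 231 and 238 CPM in SP placebo kidneys, against 242, 210, 227, 238 and 251 CPM in WT placebo kidneys. WT MAT2Ai replicates 2 and 4 were the lowest of all libraries, WT MAT2Ai replicate 5 was among the high ones, and the SP placebo libraries lay within 231 to 238 CPM. The log2 fold change was 0.17 ± 0.08 (SE) for SP MAT2Ai against WT MAT2Ai (unadjusted p = 0.034, adjusted p = 0.193 by edgeR) and -0.15 ± 0.08 for WT MAT2Ai against WT placebo (adjusted p = 0.329 by edgeR). Without WT MAT2Ai replicate 2 the first was 0.12 (adjusted p = 0.384 by edgeR), and without WT MAT2Ai replicates 2, 3 and 4 it was 0.025 (adjusted p = 0.924). The second was -0.10 without replicate 2 (adjusted p = 0.687 by edgeR) and -0.01 without replicates 2, 3 and 4 (adjusted p = 0.981).

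Cell type markers also differed between these groups and libraries. The summed CPM of 9 proximal tubule markers was 16000 to 17900 in SP MAT2Ai, 15800 to 18700 in SP placebo, 11600 to 15900 in WT MAT2Ai and 15700 to 17400 in WT placebo kidneys, with none of the 9 at 0. WT MAT2Ai replicate 2 had the lowest sum, 11600, together with the lowest Fto and Alkbh5, and WT MAT2Ai replicate 5 had the next lowest, 14600, with Fto and Alkbh5 at the top of its group. The 8 tubular injury markers summed to 281 to 360 CPM in SP MAT2Ai and 247 to 291 CPM in SP placebo. They summed to 3480 CPM in WT MAT2Ai replicate 2 and 277 to 379 CPM in the other WT MAT2Ai kidneys, against 270 to 299 CPM in WT placebo, with none at 0.

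Between SP MAT2Ai and WT MAT2Ai kidneys 1.84% of all tested genes passed and 21.8% had an unadjusted p under 0.05 by edgeR. Of 9 proximal tubule markers 1 passed and was higher (median log2 fold change 0.20), and 3 of 8 tubular injury markers passed and were lower. Apart from WT MAT2Ai replicate 2, the injury sums overlapped, at 281 to 360 CPM in SP MAT2Ai and 277 to 379 CPM in WT MAT2Ai. Of 6 macrophage markers 3 passed, all lower (median log2 fold change -0.91), with sums of 25.6 to 53.3 CPM in SP MAT2Ai kidneys and 49 to 79 CPM in WT MAT2Ai kidneys. Of 5 fibroblast and pericyte markers 1 passed and was lower (median -0.93), with sums of 16.5 to 39.4 CPM in SP MAT2Ai and 27.4 to 60.3 CPM in WT MAT2Ai. Of 6 endothelial markers 0 passed by edgeR and 5 had an unadjusted p under 0.05 (median -0.62), and of 5 podocyte markers 0 passed and 2 had an unadjusted p under 0.05 (median -0.34). Their sums were 80.5 to 118 and 99.2 to 148 CPM in SP MAT2Ai, against 75.5 to 221 and 97.1 to 201 CPM in WT MAT2Ai. In the remaining lists 0 markers passed. An unadjusted p was under 0.05 by edgeR for 2 of 2 tested adipocyte markers (median -2.27) and 2 of 6 collecting duct markers (median 0.08). The count was 1 of 5 tested lymphocyte markers (median -0.66) and 0 for neutrophil, erythroid, thick ascending limb and distal convoluted tubule markers. The median over all tested genes was -0.02, none of these markers was at 0 in these groups, and their part in the values of Fto, Alkbh5 and Wtap was not tested.

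**Figure D5:**
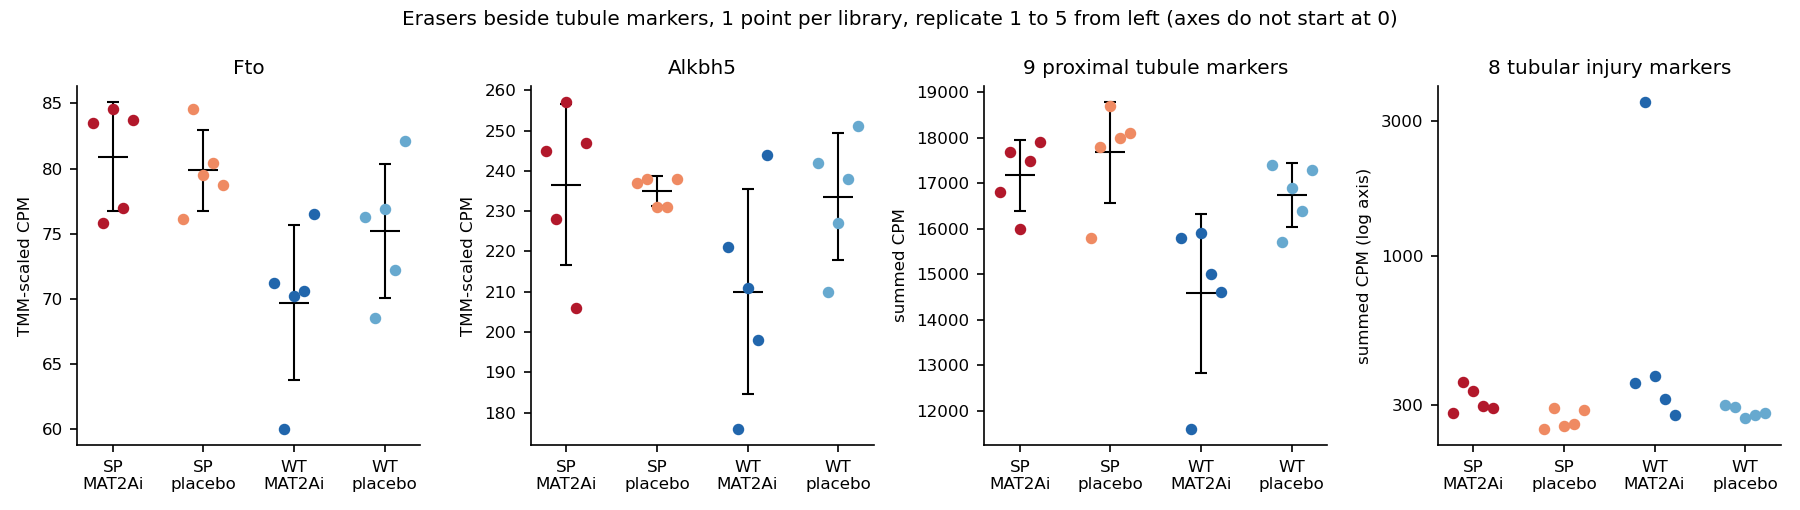
Fto and Alkbh5 in TMM-scaled CPM, the summed CPM of 9 proximal tubule markers and the summed CPM of 8 tubular injury markers (log axis), by group and library, replicates 1 to 5 from left; black marks are mean and SD, and axes do not start at 0. WT MAT2Ai replicate 2 is lowest for Fto (60), Alkbh5 (176) and the proximal tubule sum (11600) and highest for the injury sum (3480).

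Of the readers, Ythdf2 (chr4:132184912-132212303, minus strand), the cytoplasmic reader, had 22.7, 24.5, 22.1, 22.9 and 22.6 CPM in WT MAT2Ai kidneys, against 23.0, 25.4, 25.4, 25.0 and 27.2 CPM in WT placebo kidneys. It had 25.2, 25.3, 24.9, 23.1 and 24.0 CPM in SP MAT2Ai kidneys, against 22.9, 24.6, 23.9, 24.0 and 25.6 CPM in SP placebo kidneys. In WT kidneys 4 of 5 inhibitor libraries lay below every placebo library and replicate 2 lay within the placebo range, whereas the SP groups overlapped throughout. The log2 fold change was -0.13 ± 0.05 (SE) for WT MAT2Ai against WT placebo, an interval of -15.3 to -1.94%, with an unadjusted p of 0.0156 and an adjusted p of 0.23 by edgeR. It was 0.02 ± 0.05 for SP MAT2Ai against SP placebo (adjusted p = 0.994 by edgeR), and the interaction was 0.15 ± 0.07 (unadjusted p = 0.0465, adjusted p = 0.842 by edgeR). For the WT inhibitor comparison Ythdf2 gave a like value without WT MAT2Ai replicate 2 (-0.16, adjusted p = 0.321 by edgeR) and without replicates 2, 3 and 4 (-0.16, adjusted p = 0.453 by edgeR).

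Ythdc1 (chr5:86804221-86836659, plus strand), the nuclear reader, had the widest spread over the 20 libraries relative to its level. It shares 631 exonic bases with an annotated noncoding transcript of the same strand that the files do not list. It had 43.2, 42.2, 47.8, 44.5 and 43.6 CPM in SP MAT2Ai kidneys, against 51.2, 40.0, 41.4, 40.1 and 42.1 CPM in SP placebo kidneys. It had 49.8, 57.5, 40.9, 42.5 and 46.2 CPM in WT MAT2Ai kidneys, against 40.0, 42.4, 51.5, 49.1 and 54.3 CPM in WT placebo kidneys. The highest library was WT MAT2Ai replicate 2, and the library labelled SP placebo replicate 1, 1 of the pair in doubt, stood above the other SP placebo libraries. The log2 fold change was 0.04 ± 0.10 (SE) for SP MAT2Ai against SP placebo (adjusted p = 0.994 by edgeR) and -0.14 ± 0.10 for SP placebo against WT placebo (adjusted p = 1 by edgeR). Without SP placebo replicate 1 these were 0.11 and -0.22, and neither passed.

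The direction of the differences was counted over the members. For WT MAT2Ai against WT placebo 7 of 8 members had a log2 fold change below 0, all but Wtap, where 47.4% of all tested genes did. For SP MAT2Ai against SP placebo 3 of 8 were below 0, where 49.4% of all genes were. Both sets of signs include values far smaller than their errors, such as -0.01 ± 0.08 for Mettl14 in WT kidneys, and the difference between the genotypes in these counts was not tested.

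The rest of the pathway gave 0 calls in all 8 comparisons as well. Of 22 other genes of m6A and related RNA adenosine methylation 21 were tested (Igf2bp1, with at most 11 reads, was not), and 0 to 3 had an unadjusted p under 0.05 in a comparison. For WT MAT2Ai against WT placebo there were 3 of 21, a share near the 15.7% of all genes. They were Rbmx, an RNA-binding reader (0.26 ± 0.10, adjusted p = 0.252 by edgeR), Hnrnpa2b1, another (0.11 ± 0.05, adjusted p = 0.256), and Mettl5, the 18S rRNA methyltransferase (-0.17 ± 0.07, adjusted p = 0.278), all as log2 fold change ± SE. Among the other writer subunits the smallest p in that comparison was that of Zc3h13, which anchors the complex in the nucleus (-0.13 ± 0.06, adjusted p = 0.319 by edgeR). For SP MAT2Ai against SP placebo the smallest p among the other readers was that of Igf2bp2, a stabilising reader (0.33 ± 0.19, adjusted p = 0.929 by edgeR).

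Of 9 decay effectors that act with YTHDF2 all were tested and 0 passed. For WT MAT2Ai against WT placebo the deadenylases Cnot6 and Cnot6l had log2 fold changes of -0.16 ± 0.07 and -0.15 ± 0.07 (adjusted p = 0.279 and 0.308 by edgeR), and for SP MAT2Ai against SP placebo the noncatalytic subunit Cnot3 had 0.17 ± 0.08 (adjusted p = 0.888 by edgeR). Of 5 genes of SAM supply and Mat2a RNA control 0 passed. For WT MAT2Ai against WT placebo 3 of the 5 (Mat2a, Mat2b and Adk) had an unadjusted p under 0.05 by edgeR, against 15.7% of all genes. Beside Mat2a, Mat2b, the regulatory subunit of the same enzyme, had -0.18 ± 0.07 in that comparison (adjusted p = 0.266 by edgeR), opposite in sign to Mat2a. Adk had -0.15 ± 0.06 (adjusted p = 0.267 by edgeR).

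Across the 20 libraries some members varied together. As a description of libraries that share 4 groups and 1 outlying library, the log2 CPM of Fto and Alkbh5 had a Pearson r of 0.85 (Spearman rho 0.76), and r was 0.74 without WT MAT2Ai replicate 2. Wtap and Ythdc1 had an r of 0.70 (rho 0.67), and 0.56 without that library. Wtap and Fto had an r of -0.69 (rho -0.38), which was -0.40 without it. Mettl3 and Mettl14, partners in 1 complex, had an r of only 0.26 (rho 0.14), and 0.27 without it.

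Among 6851 genes of at least moderate level (mean log2 CPM of 4 or more), those most like each member over the 20 libraries were found by the Pearson r of log2 CPM. For Fto they were Acbd5, Ces2c and Atp6v1a, each with an r of 0.93 and of 0.86 to 0.87 without the 2 libraries farthest from the Fto median. For Alkbh5 they were Slmap (r = 0.94), Kif21a (0.92) and Pdpr (0.92). For Mettl16 they were Ankib1 (0.87), Ralgps2 (0.86) and Wwp1 (0.85). For Ythdc1 they were Epc1 (0.88), Casc3 (0.87) and Rnf169 (0.85).

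The remaining members had mostly looser or less stable likenesses. For Wtap they were Brpf1 (0.84), Klf6 (0.82) and Ifrd1 (0.82), of which Klf6 had an r of 0.49 without WT MAT2Ai replicate 2. For Mettl3 they were Sec24c (0.86), Golga1 (0.81) and Taf12 (0.79), and for Ythdf2 Rap2c (0.78), Mtss1 (0.76) and Socs4 (0.72). Sec24c was an exception, still at 0.79 without the 2 libraries farthest from the Mettl3 median. Mettl14 had the weakest, Kifc3 (0.69), Nfix (0.67) and Pigr (0.64), which were 0.49, 0.38 and 0.32 without the 2 libraries farthest from the Mettl14 median. All were picked as the highest of 6851 values and were not tested.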

How the data were processed

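The authors extracted RNA from kidney cortex, selected poly(A) RNA, sequenced stranded libraries, aligned reads to mm10 with STAR and deposited raw read counts per Ensembl gene from HTSeq. The sample labels also speak of single nuclei, which the study's methods do not describe for these libraries. The strand setting was not given in the sources used here. Counts of the 5 summary lines per file were left out of library sizes (no feature, 4.055 to 5.858 per 100 gene counts; ambiguous, 0.746 to 0.847; not uniquely aligned, 48.303 to 63.606).

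Gene symbols, exon lengths, coordinates and 3′ UTR sequence came from GENCODE for GRCm38, and 42462 of 43430 IDs had a symbol. Counts were filtered (filterByExpr), scaled by TMM and tested with edgeR 4.0.16 (glmQLFit, glmQLFTest) in R 4.3.3, with 1 coefficient per group over all 20 libraries and Benjamini-Hochberg adjustment over 16152 genes. A standard error is the absolute log2 fold change over the square root of F, and intervals are 95%. Log2 CPM used a prior count of 2. DESeq2 1.42.0, limma 3.58.1 (voom with sample weights), other scalings, no filter and left-out libraries were alternatives. No 2 libraries held identical values (pairwise r of log2 counts 0.9462 to 0.9957). Each library is taken as 1 animal, so p-values measure spread between animals as far as the labels tell.

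Named genes were the 8 members, Slc5a2 and Mat2a as checks, the pathway genes with the smallest p, and the 3 genes most like each member. The members and lists were chosen with earlier results of these data known. Replicate numbers are shared by the 4 groups in the labels but name no litter or batch.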

Additional observations from a re-analysis of the deposited data

Results flagged for a closer look

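Of 32 sets of 5 libraries (8 genes in 4 groups), 1 held a library far from the others. Ythdc1 in the library labelled SP placebo replicate 1 was at 51.2 CPM, where the other SP placebo libraries lay between 40.0 and 42.1 CPM, a gap of 0.816 of the group's whole range. Chance flags about 1 in 20 such sets. The same library is 1 of the pair whose Slc5a2 level lay between the other SP libraries and most WT libraries.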

How the results depend on the processing

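Across 31 alternative settings the 8 members gave 1960 log2 fold changes over 8 comparisons. Of these 87 had the other sign, each with an absolute main value of at most 0.049. Of them 4 moved by more than 1 standard error. Without WT MAT2Ai replicates 2, 3 and 4, Mettl3 was 0.070 for WT MAT2Ai against WT placebo and -0.076 for SP MAT2Ai against WT MAT2Ai, and Mettl14 was 0.10 for WT MAT2Ai against WT placebo. With library totals only, Ythdf2 was -0.028 for SP against WT averaged over treatment. The cause was not tested.

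The count of members past the threshold was 0 in all but 5 pairs of a setting and a comparison, where it was 1 (Fto). For SP MAT2Ai against WT MAT2Ai the settings were DESeq2 and leaving out WT MAT2Ai replicate 5. For SP against WT averaged over treatment they were DESeq2, limma-voom and leaving out WT MAT2Ai replicate 5. Leaving out 1 library at a time gave counts of 0 to 1 in these comparisons, and Fto values of 0.17 to 0.25 and 0.13 to 0.17. The largest move of a value was 0.0872 for another scaling, filter or tool, 0.0844 for 1 left-out library, 0.0705 without both libraries labelled SP placebo 1 and 2, and 0.147 without WT MAT2Ai replicates 2, 3 and 4.

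With the replicate number as a block, the count of members called stayed 0 and Fto was 0.22 for SP MAT2Ai against WT MAT2Ai (adjusted p = 0.076 by edgeR). Over 30 pairs of same-numbered libraries the mean correlation of deviations from group means was -0.0158 (-0.157 to 0.265), with 4 over 0.1. Among libraries of the other groups, the most alike carried the same number for 6 of 20 libraries. A mean near 0 over all genes cannot exclude a shared batch or litter.

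With 5 libraries a group, the intervals of the inhibitor comparisons reached as far as -19.4% and 18.4%. These bound the changes that the data leave possible and are not detection limits. RNA levels say nothing of protein, enzyme activity or m6A itself.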
